A study of Mus musculus with 79 samples.

Results

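Caudal vertebrae (CV) were compared with inguinal white adipose tissue (iWAT) of the same 5 mice, using every CV and iWAT library from female WT mice that received PBS, which gave 10 of the 79 samples of the series. Each mouse gave 1 CV and 1 iWAT library with the same animal number in the labels, and values below are given in the order of mouse 1 to mouse 5. The mice were BMAd-*Pnpla2*+/+ females, the WT littermates of a line that lacks ATGL, the main triglyceride lipase encoded by *Pnpla2*, in bone marrow adipocytes, on a mixed SJL and C57BL6 background and 4 to 5 months old. They received PBS through an intracerebroventricular (ICV) cannula for 9 days and were put on weighed rations of food after surgery, so that baseline here means vehicle-treated and pair-fed, not freely fed. The labels name the tissues as caudal vertebrae and inguinal fat, and neither was sorted into cell types before RNA was extracted. Lumbar vertebrae (LV) of the same mice, which hold little fat, are given as values beside the comparison. A further set with both tissues came from 5 other females of that genotype whose cannula delivered leptin, at 100 ng per h over the same 9 days.

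Bone marrow adipose tissue (BMAT) fills the tail vertebrae of the mouse early in life as so-called constitutive BMAT, and its adipocytes release stored lipid less readily than those of iWAT when food is scarce. Adipocytes make triglyceride from fatty acids that are taken up from the blood or built from glucose by de novo lipogenesis, and they break it down by lipolysis, in which ATGL, hormone-sensitive lipase and monoglyceride lipase act in turn. Catecholamines start lipolysis in white fat of the mouse mainly through the β3-adrenergic receptor, and insulin restrains it.

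Both tissues held the genes that mark adipocytes, and CV held fewer adipocyte transcripts than iWAT. *Adipoq*, which encodes adiponectin, was at 84.7, 80.4, 97.3, 60.4 and 94.9 TPM, a length-corrected share of each library's transcripts, in CV and at 482, 242, 453.9, 809 and 983 TPM in iWAT. *Plin1*, the main lipid droplet coat protein of adipocytes, was at 251, 326, 261, 146 and 218 TPM in CV and at 966, 814, 895, 1163 and 1185 TPM in iWAT. *Cidec*, which makes lipid droplets fuse, was at 162.3, 204, 171, 95.5 and 139 TPM in CV and at 768, 779, 922, 1531 and 1460 TPM in iWAT. All 3 genes were lower in CV in every mouse without overlap of the tissues, and mouse 4 had the lowest CV value of each. The mean log2 difference of TPM, CV minus iWAT, was -2.69 ± 0.87 for *Adipoq*, -2.10 ± 0.64 for *Plin1* and -2.80 ± 0.86 for *Cidec* (SD, n = 5 mice), each with a two-sided exact sign-flip permutation p of 0.0625, the smallest that 5 pairs allow. In LV the means were 1.42, 0.982 and 2.29 TPM, so the marker signal of CV was nearly absent from vertebrae with little fat. In bulk tissue, fewer adipocytes and less RNA per adipocyte cannot be told apart.

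The labelled tissues matched their defining markers, with other cell types present in each. CV libraries held 17594259 to 18042292 counts and iWAT libraries 17859572 to 18863469, and no library was a copy of another. Summed over 15 muscle genes, CV were at 34579 to 70230 TPM and iWAT at 107 to 4424 TPM. Mice 1 and 4 held the most muscle RNA in iWAT, with *Acta1*, the actin of skeletal muscle, at 614.5 and 625.4 TPM against 9.77 to 16.7 TPM in the other 3. The 15 genes of mammary epithelium summed to 1278 to 1981 TPM in iWAT and to 85.3 to 116 TPM in CV. The 8 lymph node stroma genes had a median sum of 904 TPM in iWAT and 115 TPM in CV. The 17 osteoblast and osteocyte genes summed to 7872 to 17204 TPM in CV and 514 to 946 TPM in iWAT. Erythroid and neutrophil genes, which summed to at least 207021 and 158177 TPM in every LV library, reached at most 7110 and 12277 TPM in CV.

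**Figure D1:**
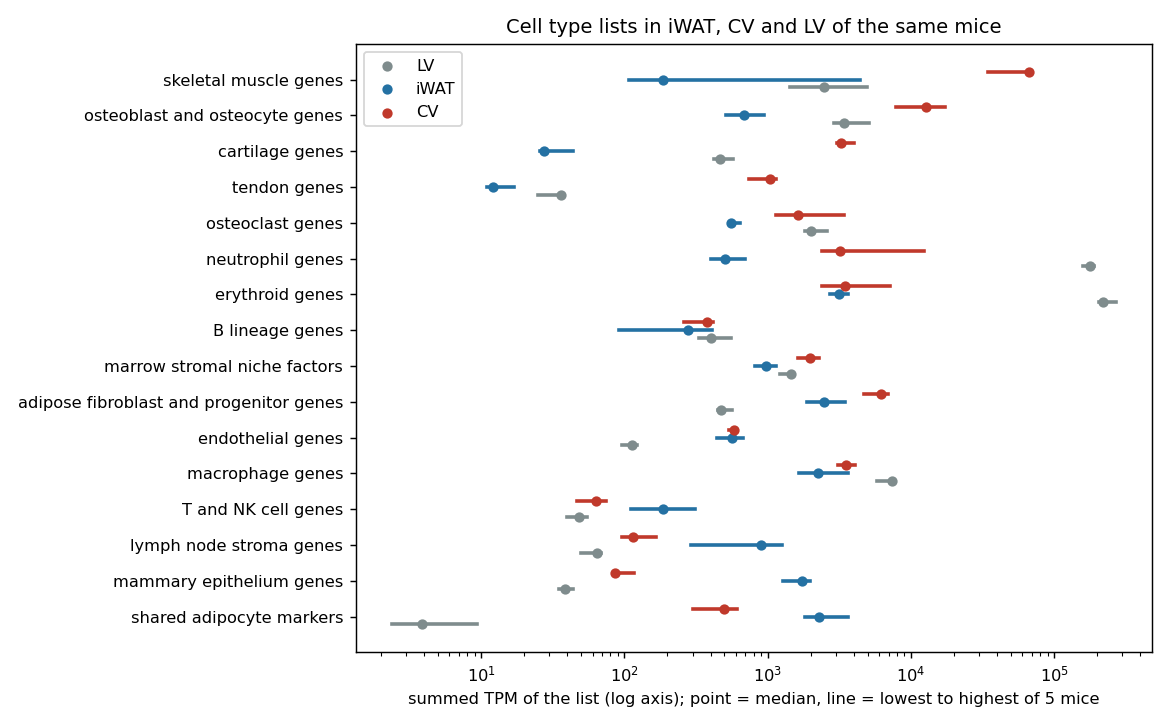
Summed TPM of cell type lists (log axis) in iWAT, CV and LV of the same 5 mice, with points at the median and lines from the lowest to the highest mouse. Muscle, bone, cartilage and tendon lists lay highest in CV, mammary and lymph node lists in iWAT, and the shared adipocyte markers fell from iWAT (median 2271 TPM) through CV (498) to LV (3.87).

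Over all genes, CV and iWAT differed in about equal numbers in each direction after TMM. That scaling centres the log2 fold changes, whose median was 0.00, so the near-even split is largely set by it. After TMM normalization, 3857 of 14979 tested genes were higher in CV (25.7%) and 3720 were lower (24.8%) by edgeR's quasi-likelihood test, with mouse as a block, a Benjamini-Hochberg adjusted p under 0.05 and a log2 change of 0.5 or more in size. On TPM, the 5 CV values lay above all 5 iWAT values for 34.2% of the genes and below all of them for 22.6%. These shares are the background for every count of genes on this scale.

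Genes of the skeleton and the tissues on it made up the top of the list in CV. *Ibsp*, a mineral-binding bone matrix protein, was at 680.9, 521, 871, 1329 and 1274 TPM in CV and had no count in any iWAT library, which made it at least 6277-fold higher in CV against a floor of 3 counts per library. *Bglap*, which encodes osteocalcin, was at 725 to 1460 TPM in CV and was also at 0 in every iWAT library (at least 975-fold higher). The osteocyte genes *Dmp1* (90.7 to 109 TPM against at most 0.10) and *Mepe* (53.0 to 160 TPM against 0) showed the same pattern. Of 17 osteoblast and osteocyte genes, 16 were higher and none lower, with a median log2 fold change of 7.65 against 0.00 over all tested genes. All 15 cartilage genes were higher, with a median of 8.60, among them *Acan*, the large proteoglycan of cartilage, at 150 to 214 TPM in CV and at most 0.010 TPM in iWAT. The collagens *Col2a1*, of cartilage matrix, and *Col10a1*, of cartilage cells before mineralization, were at 239 to 498 and 41.3 to 277 TPM in CV and at most at 0.050 and 0.030 TPM in iWAT. *Panx3*, a channel protein of bone and cartilage cells, was at 27.4 to 81.9 TPM against 0 (at least 412-fold higher).

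CV also held transcripts of the intervertebral disc, of tendon and of muscle. *T*, which encodes brachyury and marks the notochord and the cells of the disc nucleus, was at 67.6, 64.6, 45.7, 73.2 and 64.1 TPM in CV and at 0 in iWAT, at least 448-fold higher in CV, and averaged 14.7 TPM in LV. *Clec3a*, a lectin of cartilage, was at 122 to 202 TPM against 0 (at least 1593-fold). All 6 tendon genes were higher in CV, with *Tnmd*, which encodes tenomodulin, at 89.8 to 118 TPM against 0.170 to 0.470 and *Fmod*, or fibromodulin, at 478 to 825 TPM against 5.15 to 7.35. Of 15 muscle genes 14 were higher, with a median log2 fold change of 7.02, and the fast fibre myosin *Myh4* was not (0.47, adjusted p = 0.852). *Myh4* was at 27.1, 19, 77.3, 3.40 and 7.73 TPM in CV and at 226, 4.92, 1.16, 210.0 and 1.5 TPM in iWAT, so that it was lower in CV in mice 1 and 4 and higher in the other 3. The myosin of embryonic fibres, *Myh3*, was at 16.9 to 40.5 TPM in CV and at most 0.020 TPM in iWAT. Muscle RNA also holds genes of oxidation and droplet storage, and it was present in the CV libraries at the sums given above.

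Erythroid and neutrophil genes of marrow were present in CV at lower sums than in LV, without overlap. Of 15 neutrophil genes 13 were higher in CV than in iWAT and 2 lower. The lower genes, *Lcn2* (-1.02) and *Ltf* (-1.37), which epithelia also express, were not called without the replicate block (-0.81 and -1.01, adjusted p = 0.0995 and 0.0802). *Mpo*, the granule peroxidase, was higher, at 12.0 to 96.6 TPM in CV, 0.0300 to 0.850 TPM in iWAT and a mean of 790 TPM in LV. Of 10 tested erythroid genes 6 were higher, but their list summed to 2417 to 7110 TPM in CV and 2718 to 3650 TPM in iWAT, with overlap. *Hba-a1*, a haemoglobin gene, also overlapped, at 822 to 2561 TPM in CV and 1020 to 1518 TPM in iWAT. Of 11 B lineage genes only *Pax5* was called, a call lost without mouse 2 (0.81) or mouse 3 (0.85). Osteoclast genes were higher in 8 of 11, with *Ctsk*, the collagen-degrading protease of osteoclasts, at 407, 437, 1286, 660 and 621 TPM in CV against 51.2 to 108 TPM in iWAT. The stromal niche list holds factors that marrow stroma supplies to blood cells. In that list 12 of 15 genes were higher in CV than in iWAT and 1 lower, with a median of 1.95. Its summed TPM was higher in CV than in LV, without overlap. The sums of the B lineage and osteoclast lists overlapped between CV and LV.

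The leptin receptor and the chemokine that holds blood stem cells in marrow were among the niche genes higher in CV. *Lepr* was at 47.9, 72.4, 45.1, 49.3 and 45.9 TPM in CV and at 2.59, 2.70, 2.99, 3.60 and 4.02 TPM in iWAT. The tissues did not overlap, and mouse 2 stood highest in CV. The log2 fold change of *Lepr* was 3.77 ± 0.182 (SE; adjusted p = 3.31e-06), a mean 16.4 times as high, with 15.1 TPM in LV. *Cxcl12* was at 834 to 1232 TPM in CV against 130 to 166.4 TPM in iWAT (log2 fold change 2.76 ± 0.124, SE, adjusted p = 2.40e-06) and at 477 TPM in LV. *Grem1*, an antagonist of bone morphogenetic proteins, was at 13.8 to 22.2 TPM against 0 to 0.370 TPM (6.45 ± 0.358, adjusted p = 5.95e-06). *Esm1*, a proteoglycan secreted by endothelial cells, was at 24.9 to 46.2 TPM against 0.640 to 2.86 TPM, and *Foxc1*, a transcription factor of the marrow niche cells, at 23.3 to 28.9 TPM against 2.31 to 3.50 TPM.

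Genes of epithelia, many of them mammary, stood at the top of the list in iWAT. The rule that took the 10 genes with the largest fold in iWAT named *Atp6v1b1*, *Krt5*, *Cldn4*, *Glycam1*, *Krt14*, *Csn3*, *Elf5*, *Fcgbp*, *Btn1a1* and *Adrb3*. *Krt5* and *Krt14*, keratins of basal epithelial cells, were at 58.9 to 91.7 and 53.8 to 96.7 TPM in iWAT and at 0 TPM in 4 of 5 CV libraries each. *Csn3*, a milk casein, was at 234 to 334 TPM against at most 0.150. *Glycam1*, which is made by vessels of lymph nodes and by mammary cells, was at 331.7, 43.4, 195, 612 and 566 TPM in iWAT against at most 0.250 TPM in CV. All 14 tested mammary genes were lower in CV, with a median log2 fold change of -5.60, or -5.20 with genes at 0 in CV set at their bound. T and NK cell genes were lower in 9 of 14, with *Cd3d* at 19.3 to 32.7 TPM in iWAT against 1.59 to 4.08 TPM in CV, and lymph node stroma genes in 7 of 8.

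Genes of vessels, macrophages and fibroblasts did not differ in 1 direction after TMM. Of 13 endothelial genes 3 were higher in CV and 6 lower, with a median log2 fold change of -0.24. *Stab2*, a scavenger receptor of sinusoidal vessels, was the highest of them, at 20 to 32.3 TPM in CV against 0.250 to 2.5 TPM in iWAT and a mean of 9.32 TPM in LV (log2 fold change 5.00 ± 0.542, SE, adjusted p = 1.30e-04). Of 15 macrophage genes 5 were higher and 3 lower, with a median of 0.29. *Vsig4* and *Lyve1*, of tissue-resident macrophages, were at 16.4 to 22.2 and 78.0 to 106 TPM in CV against 1.16 to 3.72 and 14.9 to 36.2 TPM in iWAT, whereas *Folr2*, the folate receptor of resident macrophages, was lower in CV without overlap, at a mean of 49.7 TPM against 107 TPM. *Lyve1* is also a gene of lymphatic vessels. LV held 1.37% of the CV mean of *Lyve1* and 1.43% of that of *Folr2*. Of 14 fibroblast and progenitor genes 5 were higher and 2 lower, with a median of 0.41, among them *Dcn*, or decorin, at 2709 to 4489 TPM in CV against 748 to 1365 TPM in iWAT (1.81 ± 0.231, adjusted p = 3.02e-04).

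Nerve genes and some, but not all, skin genes were present in CV as well. Of 8 tested Schwann cell and nerve genes 6 were higher in CV and 2 lower. *Sox10*, the transcription factor of Schwann cells and also of mammary epithelium, was 1 of the lower genes, at 3.30 to 5.07 TPM in CV against 23.6 to 40.5 TPM in iWAT (log2 fold change -3.05 ± 0.204, SE, adjusted p = 1.39e-05). Of 4 tested skin epidermis genes 3 were higher, with *Krtdap*, a keratinocyte protein, at 160 to 281 TPM in CV, 0.450 to 5.84 TPM in iWAT and a mean of 0.138 TPM in LV. The epidermal keratin *Krt10* was at 2.9 to 3.9 TPM in CV and 2.4 to 4.3 TPM in iWAT. *Krt1* and *Lor* were at most at 0.2 TPM in CV.

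Most genes of adipocytes were lower in CV per library: of 190 tested genes in the adipocyte lists without the 3 markers, 131 were lower and 26 higher, with a median log2 fold change of -1.66. To compare them with the amount of adipocyte RNA, the test was repeated with each library scaled by the geometric mean of *Adipoq*, *Plin1* and *Cidec*. That scaling moved the median log2 fold change of all tested genes from 0.00 to 2.68, and a value of 0 means lower in CV by as much as the markers. On this scale 92.1% of all tested genes were higher in CV and 2.05% (307 genes) were lower, so a higher call is the common case and a lower call the rare one. Of the 190 adipocyte genes 103 were higher, 27 lower and 60 neither, with a median of 1.02. The scaling itself keeps the 3 markers near 0. Of 5 further broad adipocyte markers, *Pparg*, *Cebpa*, *Lipe*, *Fabp4* and *Plin4*, none was called, at -0.33 to 0.88, while without the replicate block *Pparg* (0.65, adjusted p = 0.0393) and *Plin4* (0.88, adjusted p = 0.0123) were called higher. The SE on this scale was at least 0.42 for the genes named here, since the spread of the markers between libraries enters every gene. The number of mice with the same direction is given beside some of the p-values. The test pools error over genes, while the error of the 3 markers is common to all genes, so p-values on this scale can overstate what 5 mice show. *Adrb3*, for example, had an adjusted p of 4.00e-33 with an SE of 0.578 here, against 1.79e-07 with an SE of 0.205 after TMM. Among the 118 of these genes whose LV level was under 25% of CV, 65 were higher and 15 lower, with a median of 1.17. Of all 4333 tested genes under that limit, 3835 were higher and 138 lower, with a median of 3.10. Taking only called genes that moved the same way in all 5 mice left 26 of the 27 lower calls and 100 of the 103 higher calls.

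**Figure D2:**
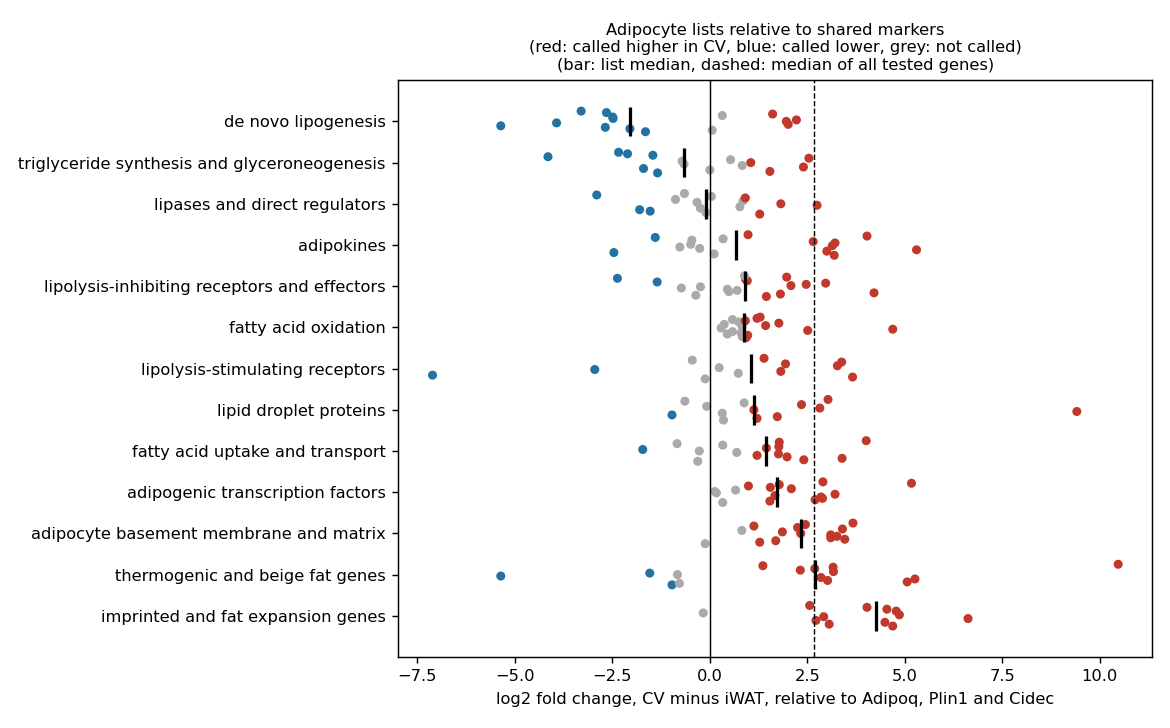
Log2 fold change, CV minus iWAT, relative to the shared markers, with 1 point per gene and lists in rows. Bars mark list medians and the dashed line the median of all tested genes, 2.68; de novo lipogenesis (median -2.05) and triglyceride synthesis (-0.66) lay farthest to the left, and imprinted genes (4.26) to the right.

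De novo lipogenesis was the adipocyte list with the most genes lower in CV relative to the markers, with 9 of 15 lower, 4 higher and a median of -2.05 against 2.68 over all tested genes. Among the 8 genes of the list whose LV level was under 25% of CV, 4 were lower and 2 higher, with a median of -0.79. All 4333 tested genes under that limit had 138 lower, 3835 higher and a median of 3.10. Most of the 9 lower genes act on the path from citrate to long fatty acids. *Slc25a1*, the carrier that exports citrate from mitochondria, was at 59.1, 76.3, 60.2, 40.8 and 49.1 TPM in CV and at 2058, 2572, 1990, 2064 and 1528 TPM in iWAT. *Acly*, which splits citrate to acetyl-CoA, was at 54.2 to 80.0 TPM against 1177 to 1907 TPM, and *Acss2*, which makes acetyl-CoA from acetate, at 13.6 to 20.8 TPM against 468 to 722 TPM. The tissues stood far apart in all 5 mice for each. Relative to the markers the log2 fold change was -2.65 ± 0.469 for *Slc25a1* (SE; adjusted p = 3.43e-08), -2.05 ± 0.472 for *Acly* (adjusted p = 1.74e-05) and -2.68 ± 0.464 for *Acss2* (adjusted p = 1.73e-08), with all 5 mice in that direction.

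The steps that build and lengthen the chain were lower too. *Acaca*, acetyl-CoA carboxylase 1, was at 36.8, 47.8, 34.0, 27.3 and 36.1 TPM in CV and at 737, 576, 551, 704 and 725 TPM in iWAT. *Fasn*, fatty acid synthase, was at 111, 168.9, 98.5, 58.7 and 90.6 TPM in CV and at 3520, 3160, 2957, 3217 and 3173 TPM in iWAT. *Elovl6*, which lengthens palmitate to stearate (gene ID 170439, chromosome 3, 129532386 to 129638495 in GRCm38.p6), was at 3.80, 5.58, 3.83, 2.86 and 3.53 TPM in CV and at 432, 327, 282, 327 and 339 TPM in iWAT. For all 3 genes mouse 2 was highest and mouse 4 lowest in CV, and no values overlapped. The mean of *Elovl6* was 87.1 times as high in iWAT, that of *Fasn* 30.4 times and that of *Acaca* 18.1 times. Relative to the markers, *Elovl6* was at -3.93 ± 0.488 (SE; adjusted p = 8.10e-15), *Fasn* at -2.48 ± 0.465 (adjusted p = 1.59e-07) and *Acaca* at -1.65 ± 0.456 (adjusted p = 3.47e-04), each lower in 5 of 5 mice. LV held 2.15 TPM of *Elovl6*, which is 54.9% of the CV mean, and 7.54 TPM of *Fasn*, 7.14% of the CV mean.

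*Thrsp*, a nuclear protein that rises with lipogenesis, and *Me1*, the malic enzyme that supplies NADPH, were at -3.30 ± 0.484 (SE; adjusted p = 4.18e-11) and -2.49 ± 0.472 (adjusted p = 2.38e-07). *Thrsp* was at 92.9, 234, 138, 62.7 and 94.8 TPM in CV against 7016, 8061, 5964, 5205 and 5907 TPM in iWAT, with the same 2 mice at the extremes in CV. *Elovl3*, which lengthens very long chains, had at most 1 count in any CV library and 57 to 116 counts in iWAT.

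Desaturases were not among the lower genes of the list. *Scd1*, the main enzyme that makes oleate, was at 4102, 5709, 3688, 3319 and 4454 TPM in CV and at 20007, 17010, 14801, 22337 and 24302 TPM in iWAT, which is 0.32 ± 0.427 relative to the markers (SE; adjusted p = 0.464). It remained among the most abundant adipocyte genes of CV, and LV held 37.6 TPM. *Scd2*, *Fads1*, *Fads2* and the elongase *Elovl5* were the 4 genes of the list called higher relative to the markers, at 1.61 to 2.22, below the median of all genes, and LV held 16.6% to 58.4% of their CV mean. *Srebf1*, the transcription factor that drives lipogenic genes, was at 0.99 ± 0.450 (adjusted p = 0.0291), and *Mlxipl*, the carbohydrate-sensing factor ChREBP, at 0.17 ± 0.438 (adjusted p = 0.707). The call of *Srebf1* was lost without any 1 of mice 1, 3, 4 and 5, at 0.75 to 1.09. Of the markers of mammary epithelium, a tissue that also makes fatty acids, *Krt18* averaged 464 TPM and *Epcam* 155 TPM in iWAT against 12.6 and 5.75 TPM in CV, and their part in the lipogenic difference was not tested.

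The sequences before the starts of 4 of these genes are shown because they moved together, with that of the marker *Plin1* for comparison. They are 250 bases up to the RefSeq start in GRCm38.p6: *Elovl6* at chr3:129532136-129532385 on the plus strand, *Thrsp* at chr7:97417551-97417800, *Fasn* at chr11:120824548-120824797, *Slc25a1* at chr16:17928220-17928469 and *Plin1* at chr7:79732777-79733026, these 4 on the minus strand. Each is printed on the gene's own strand toward the start, with motif matches in capitals.
Elovl6: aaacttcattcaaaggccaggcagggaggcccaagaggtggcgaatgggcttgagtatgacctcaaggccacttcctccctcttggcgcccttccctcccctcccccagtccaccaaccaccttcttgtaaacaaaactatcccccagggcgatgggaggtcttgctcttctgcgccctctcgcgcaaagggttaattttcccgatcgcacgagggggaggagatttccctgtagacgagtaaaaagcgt
Thrsp: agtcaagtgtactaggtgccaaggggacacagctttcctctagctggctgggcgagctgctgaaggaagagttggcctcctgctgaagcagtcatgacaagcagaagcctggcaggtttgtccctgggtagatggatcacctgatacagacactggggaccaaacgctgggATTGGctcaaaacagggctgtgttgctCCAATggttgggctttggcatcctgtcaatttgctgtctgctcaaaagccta
Fasn: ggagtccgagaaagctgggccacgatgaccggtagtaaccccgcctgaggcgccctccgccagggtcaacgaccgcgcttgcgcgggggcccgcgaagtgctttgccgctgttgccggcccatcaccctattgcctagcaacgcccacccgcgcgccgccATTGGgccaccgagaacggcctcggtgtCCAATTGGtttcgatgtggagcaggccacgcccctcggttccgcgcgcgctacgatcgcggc
Slc25a1: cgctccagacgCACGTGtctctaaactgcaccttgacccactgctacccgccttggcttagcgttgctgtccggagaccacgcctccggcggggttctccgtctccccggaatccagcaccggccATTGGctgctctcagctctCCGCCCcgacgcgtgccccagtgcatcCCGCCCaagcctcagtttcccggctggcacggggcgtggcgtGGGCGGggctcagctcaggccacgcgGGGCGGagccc
Plin1: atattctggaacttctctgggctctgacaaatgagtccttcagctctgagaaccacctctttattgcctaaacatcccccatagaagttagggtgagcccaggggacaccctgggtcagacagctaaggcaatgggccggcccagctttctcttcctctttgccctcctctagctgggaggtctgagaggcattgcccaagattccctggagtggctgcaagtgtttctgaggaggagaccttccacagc
The motifs searched on both strands were the E-box CACGTG, the CCAAT box CCAAT, the GC box GGGCGG and the sterol element-like TCACNCCAC. *Slc25a1* held 1 E-box, 1 CCAAT box and 4 GC boxes, *Thrsp* 2 CCAAT boxes and *Fasn* 3 CCAAT boxes, of which 2 overlap on opposite strands. *Elovl6* and *Plin1* held none of these letters in this window. Among 32536 promoter windows of the same length, 6.04% held the E-box, 33.8% the CCAAT box, 33.0% the GC box and 1.04% the sterol element-like motif, and the matches serve as a description only.

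Triglyceride synthesis was the other adipocyte list with more lower than higher genes, with 6 of 15 lower, 4 higher and a median of -0.66. All tested genes had 2.05% lower, 92.1% higher and a median of 2.68. *Mogat1*, which adds a fatty acid to monoacylglycerol, was at 0.360, 0.990, 0.590, 0.220 and 0.280 TPM in CV and at 43.5, 36.5, 37.0, 38.4 and 43.4 TPM in iWAT. It was 81.5 times as high in iWAT by the mean and stood at -4.15 ± 0.590 relative to the markers (SE; adjusted p = 1.11e-11), from 2 to 11 counts per CV library. *Dgat2*, which adds the last fatty acid, was at 113, 128, 83.7, 87.9 and 112 TPM in CV against 2145, 2265, 1840, 1754 and 1748 TPM in iWAT, at -1.70 ± 0.463 (adjusted p = 2.78e-04). *Dgat1*, the other enzyme of that step, lay at -0.00 (adjusted p = 0.999), with means of 48.4 TPM in CV, 291 TPM in iWAT and 46.7 TPM in LV. LV thus held 96.5% as much *Dgat1* as CV, and the part of other cells in the CV level was not tested.

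Both genes of the list that make the glycerol backbone from pyruvate were lower. *Pck1*, the cytosolic PEPCK, was at 28.9, 34.9, 34.1, 25.1 and 35.0 TPM in CV and at 562, 344, 700, 1456 and 1455 TPM in iWAT, with mice 4 and 5 highest in iWAT and no overlap. It stood at -2.11 ± 0.449 relative to the markers (SE; adjusted p = 3.87e-06). *Pcx*, pyruvate carboxylase, was at 30.5 to 57.4 TPM against 1090 to 1292 TPM (-2.34 ± 0.464, adjusted p = 6.79e-07). *Agpat2* was at -1.34 ± 0.451 (adjusted p = 0.00338). *Mogat2* was at -1.46 ± 0.600 (adjusted p = 0.0160) and lost the call without mouse 1 (-0.97) or mouse 2 (-0.87). Relative to the markers on TPM it was lower in 3 of 5 mice.

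None of the core lipases was called relative to the markers. *Pnpla2* was at 261, 266, 224, 217 and 288 TPM in CV and at 1276, 1066, 1253, 1803 and 1785 TPM in iWAT, 5.72 times as high in iWAT by the mean. The values were lower in CV in every mouse, by about as much as the markers. Relative to the markers *Pnpla2* was at 0.04 ± 0.443 (SE; adjusted p = 0.935), *Lipe*, hormone-sensitive lipase, at -0.33 ± 0.439 (adjusted p = 0.464) and *Mgll*, monoglyceride lipase, at 0.85 ± 0.447 (adjusted p = 0.0616), which was called higher without the replicate block (0.82, adjusted p = 0.0180). Over the choice of *Adipoq*, *Plin1*, *Cidec* or the 8 broad markers as the scale, *Pnpla2* ran from -0.40 to 0.31. A p above the threshold does not show equal levels, and the errors given here span changes of that size.

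Of 15 lipases and their direct regulators, 3 were lower relative to the markers, or 5 without the replicate block, and 4 higher, with a median of -0.10. Among all tested genes 2.05% were lower and 92.1% higher, with a median of 2.68. *Pnpla3*, a relative of ATGL that rises with feeding and lipogenesis, was at 7.05, 15.7, 7.11, 2.34 and 3.85 TPM in CV and at 366, 386, 307, 121 and 199 TPM in iWAT. In both tissues mouse 2 was highest and mouse 4 lowest. *Pnpla3* stood at -2.90 ± 0.463 relative to the markers (SE; adjusted p = 1.14e-09). The carboxylesterases *Ces1d* and *Ces1f*, which cleave triglyceride in adipocytes, were at -1.53 ± 0.438 (adjusted p = 5.49e-04) and -1.80 ± 0.450 (adjusted p = 7.78e-05), with *Ces1d* at 28.6 to 60.3 TPM in CV against 491 to 1010 TPM in iWAT. These carboxylesterase genes have close paralogues, between which the authors' counting could split reads. All 3 were lower in 5 of 5 mice.

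The 4 higher genes of that list were present in LV as well. *Abhd5*, the coactivator of ATGL, was at 31.3 to 38.4 TPM in CV, 66.2 to 97.3 TPM in iWAT and 26.2 TPM in LV, at 1.28 ± 0.438 relative to the markers (SE; adjusted p = 0.00397). Taking the unscaled LV value of the same mouse from CV turned it to -0.92. With LV scaled by bone and marrow markers, at factors of only 0.0388 to 0.0802, it was at 1.18. *Plaat3*, an acyltransferase that lowers lipolysis, was at 0.91 ± 0.435 (adjusted p = 0.0397) and went to -0.01 and 0.58 after the same 2 subtractions, with LV at 33.4% of CV. Its call was also lost without any 1 of mice 1, 3, 4 and 5, at 0.77 to 0.99. *Lipa*, the lysosomal lipase, was at 1.82 and *Hilpda*, an ATGL inhibitor induced by low oxygen, at 2.75, with LV at 62.1% and 49.4% of CV. Of the remaining genes of the list, *Aqp7*, the glycerol channel of adipocytes, at -0.10, *Dbi*, an acyl-CoA binding protein, at -0.24, *Sncg*, a synuclein of adipocytes, at -0.65 (adjusted p = 0.136) and *Mmd* at -0.88 (adjusted p = 0.0508) were not called.

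*G0s2*, which encodes a small peptide that inhibits ATGL, was at 110, 180, 115, 95.0 and 117 TPM in CV and at 421, 588, 317, 276 and 478 TPM in iWAT, at 0.77 ± 0.439 relative to the markers (SE; adjusted p = 0.0817). Mouse 2 was highest in both tissues. The ratio of *G0s2* to *Pnpla2* TPM was 0.422, 0.676, 0.513, 0.439 and 0.405 in CV and 0.330, 0.552, 0.253, 0.153 and 0.268 in iWAT. It was higher in CV than in iWAT of the same mouse in 5 of 5 mice, though the ranges of the tissues overlapped. The mean ratio was 0.491 ± 0.111 in CV and 0.311 ± 0.149 in iWAT (SD, n = 5), and the mean log2 difference of 0.76 ± 0.51 had a two-sided exact sign-flip permutation p of 0.0625, the smallest possible here. LV had a higher ratio than either, 1.26 to 1.76, from 36.4 TPM of *G0s2* and 23.3 TPM of *Pnpla2*. With the LV values of the same mouse subtracted from CV, the mean CV ratio depended on how LV was scaled. It was 0.485 ± 0.112 with LV scaled down by bone and marrow markers, to factors of 0.0388 to 0.0802 that leave little to subtract. The ratio was 0.380 ± 0.115 with LV unscaled, and 5.75e-04 ± 0.275 with LV scaled up by osteoblast genes, where mice ran from -0.406 to 0.356.

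Among receptors that start lipolysis, *Adrb3* differed most between the tissues. *Adrb3*, the β3-adrenergic receptor (gene ID 11556, chromosome 8, 27225776 to 27230845 in GRCm38.p6), was at 0.180, 0.380, 0.420, 0.320 and 0.330 TPM in CV and at 237, 181.7, 306, 342 and 254 TPM in iWAT. The CV values rest on 5 to 12 counts per library and those of iWAT on 5508 to 9624. The mean was 810 times as high in iWAT, and relative to the markers *Adrb3* was at -7.11 ± 0.578 (SE; adjusted p = 4.00e-33), lower in 5 of 5 mice. LV, with next to no adipocyte markers, held 0.422 TPM, which is 129% of the CV mean. In all 51 CV libraries of the series, across sexes, genotypes and treatments, *Adrb3* ran from 0 to 1.19 TPM. In the 10 iWAT libraries of the series, 5 of them from leptin-treated mice, it ran from 18.7 to 342 TPM.

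*Adrb1*, the β1-adrenergic receptor, did not follow *Adrb3*. It was at 0.370 to 1.11 TPM in CV and at 4.35 to 5.11 TPM in iWAT, at -0.12 ± 0.521 relative to the markers (SE; adjusted p = 0.820).

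Of 12 stimulating receptors 6 were higher relative to the markers and 2, *Adrb3* and *Gipr*, were lower, with a median of 1.06. Over all tested genes 92.1% were higher and 2.05% lower, with a median of 2.68. *Tshr*, the thyrotropin receptor, was at 14.4, 18.3, 14.3, 10.8 and 15.6 TPM in CV and at 41.0, 38.1, 40.5, 24.2 and 25.2 TPM in iWAT, at 1.39 ± 0.451 (SE; adjusted p = 0.00230). The natriuretic peptide receptors *Npr1* and *Npr2* were at 1.94 and 3.38 and *Ghr*, the growth hormone receptor, at 1.82, with LV under 11% of CV for *Npr1*. *Mc2r*, the corticotropin receptor, was at 0.24 ± 0.473 (adjusted p = 0.616), and *Ntrk3*, a neurotrophin receptor, at -0.45 ± 0.447 (adjusted p = 0.325). *Gipr*, the receptor of an incretin hormone, was at a mean of 0.0300 TPM in CV and 1.62 TPM in iWAT (-2.95, adjusted p = 3.26e-04).

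Of 18 inhibiting receptors and insulin effectors, 9 were higher relative to the markers and 2 lower, with a median of 0.90. This median too lay below the 2.68 of all tested genes, of which 92.1% were higher and 2.05% lower. *Ptger3*, a prostaglandin E2 receptor that restrains lipolysis, was at 2.28, 3.25, 1.59, 1.19 and 3.27 TPM in CV and at 68.5, 88.5, 57.5, 46.6 and 62.0 TPM in iWAT, at -2.37 ± 0.476 (SE; adjusted p = 1.00e-06). LV held 2.41 TPM of it, as much as CV. *Irs3*, an insulin receptor substrate of rodent adipocytes, was at 1.48 to 2.33 TPM in CV and at 25.8 to 29.4 TPM in iWAT (-1.35 ± 0.474, adjusted p = 0.00480). The other substrates *Irs1* and *Irs2* were at 2.47 and 2.97, with overlap of their TPM values between tissues, and the insulin receptor *Insr* at 2.08. *Slc2a4*, the glucose transporter that insulin moves to the membrane, averaged 132 TPM in CV and 199 TPM in iWAT (1.97 ± 0.456, adjusted p = 2.11e-05), a gene that muscle also expresses.

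Other inhibitors of lipolysis were near or above the markers. *Npr3*, the clearance receptor of natriuretic peptides, was at 24.2, 25.6, 21.2, 20.6 and 20.5 TPM in CV, at 54.7, 63.7, 62.5, 65.4 and 87.8 TPM in iWAT and at 0.196 TPM in LV. It stood at 0.96 ± 0.434 relative to the markers (SE; adjusted p = 0.0285), with 0 of 5 mice lower, and lost the call without any 1 of mice 1, 3, 4 and 5, at 0.73 to 1.08. *Acvr1c*, the activin receptor ALK7, was at 4.33 to 5.57 TPM in CV, 8.34 to 12.2 TPM in iWAT and 0.0320 TPM in LV, at 1.45 ± 0.443 (adjusted p = 0.00121). *Pde3b*, which breaks down cAMP under insulin, was at 0.92 ± 0.429 (adjusted p = 0.0337), a call lost without any 1 of mice 1, 2, 3 and 5 at 0.86 to 1.02. *Adora1* (-0.36), *Aoc3* (0.49), *Sucnr1* (0.89), *Hcar1* (-0.73), *Hcar2* (-0.24), *Ffar2* (0.70) and *Ffar4* (0.45) were not called.

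**Figure D3:**
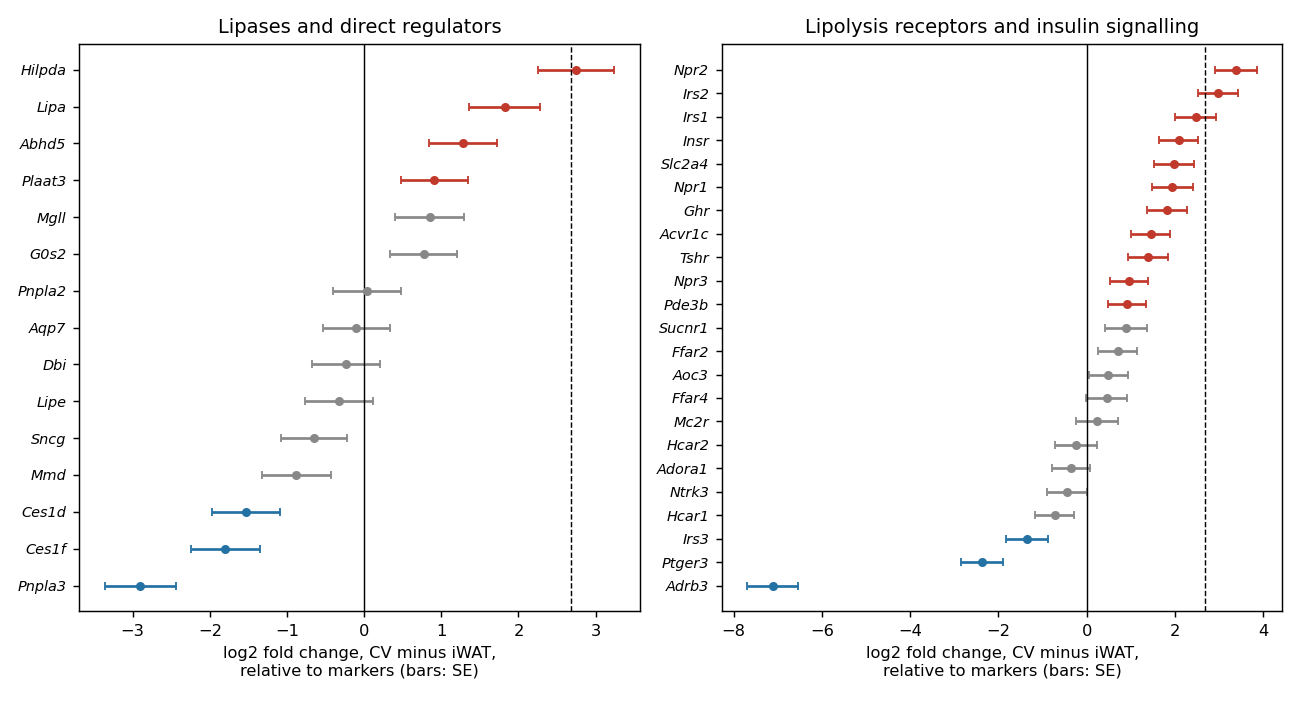
Log2 fold change, CV minus iWAT, relative to the shared markers for lipases and their regulators (left) and lipolysis receptors with insulin signalling genes (right) described in the text. Bars give the SE derived from edgeR's quasi-likelihood test, which pools error over genes. Red points were called higher in CV, blue lower and grey neither, and the dashed line is the median of all tested genes; *Adrb3* at -7.11 stood farthest from the rest.

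**Figure D4:**
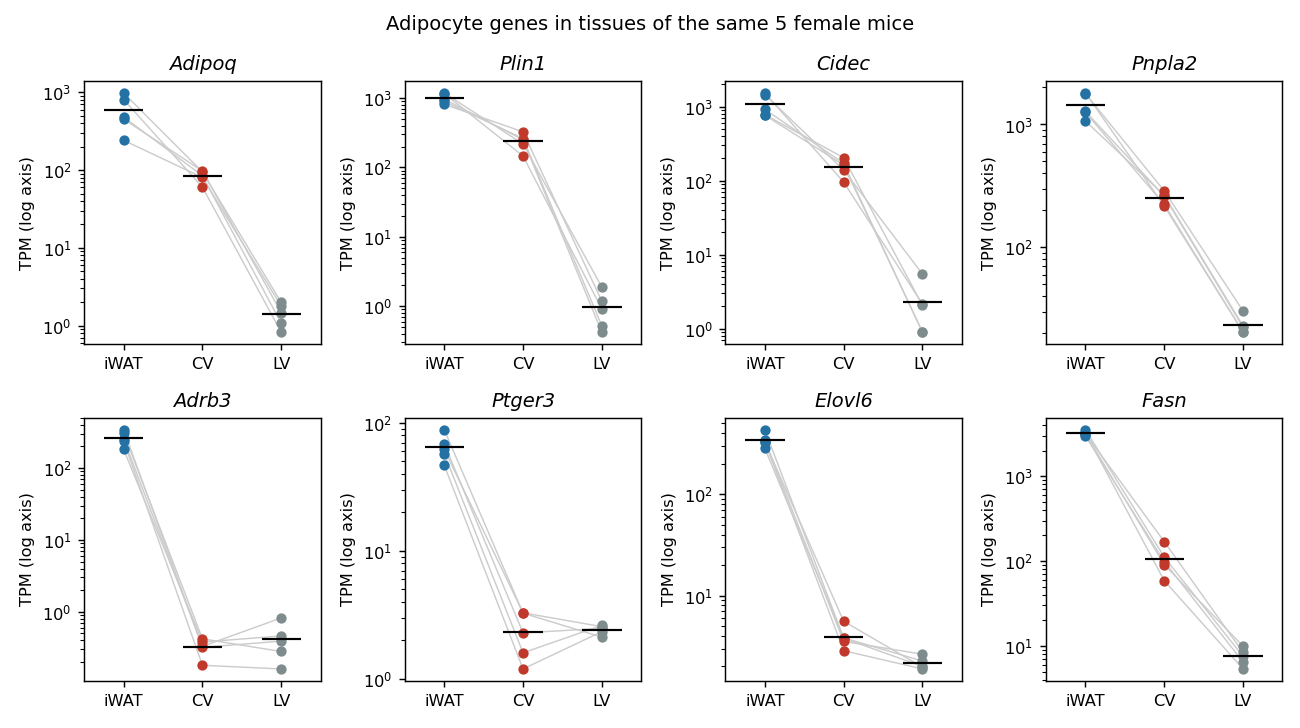
TPM (log axis) of 8 adipocyte genes in iWAT, CV and LV, with lines joining the tissues of 1 mouse and bars at the mean. *Pnpla2* fell from iWAT to CV like the markers, while *Adrb3* and *Ptger3* were as low in CV as in LV and *Elovl6* and *Fasn* lay between.

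Adipokines did not move as 1 group, with 8 of 16 higher, 2 lower and a median of 0.66 relative to the markers. The background was 92.1% higher, 2.05% lower and a median of 2.68. *Lep*, which encodes leptin, was at 37.0, 47.1, 28.9, 18.8 and 45.5 TPM in CV and at 307, 314, 227, 190 and 365 TPM in iWAT, at -0.49 ± 0.434 relative to the markers (SE; adjusted p = 0.265), and at 0.154 TPM in LV. *Cfd*, which encodes adipsin, was at -0.26 (adjusted p = 0.566). *Retn*, which encodes resistin, was at 469, 770, 508, 227 and 418 TPM in CV and at 7053, 8693, 6774, 5800 and 6052 TPM in iWAT, at -1.40 ± 0.446 (adjusted p = 0.00188). *Angptl8*, which is induced by feeding and inhibits lipoprotein lipase, was at 2.70 to 9.30 TPM in CV and at 55.2 to 368 TPM in iWAT (-2.46 ± 0.505, adjusted p = 1.58e-06). The extremes were in the same mouse for both tissues, mouse 2 high and mouse 4 low.

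*Bmp4*, a growth factor that commits precursors to the fat lineage, was higher in CV per library too, at 23.0 to 29.7 TPM against 3.64 to 4.79 TPM (log2 fold change after TMM 2.62 ± 0.113, SE, adjusted p = 2.16e-06), with LV at 2.59 TPM. *Sfrp5*, an antagonist of Wnt, was at 19.6 to 28.8 TPM against 5.6 to 13 TPM (1.35 ± 0.191, adjusted p = 5.04e-04).

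Fatty acid uptake genes were mostly at or above the markers, with 9 of 15 higher and 1 lower (2 without the replicate block). Their median of 1.45 lay below the 2.68 of all tested genes, of which 92.1% were higher. *Cd36* and *Lpl*, the fatty acid translocase and lipoprotein lipase, were at 0.69 (adjusted p = 0.133) and 0.33 (adjusted p = 0.463). The lower gene, *Fabp5*, a fatty acid binding protein also of epithelia, was at 50.8 to 72.4 TPM in CV, 942 to 1761 TPM in iWAT and 50.1 TPM in LV (-1.72 ± 0.456, SE, adjusted p = 1.89e-04). *Vldlr*, the receptor of very low density lipoprotein, was at 40.0 to 71.9 TPM in CV and at 14.8 to 24.8 TPM in iWAT, 2.80 times as high in CV, with LV at 3.27 TPM. Of 18 fatty acid oxidation genes 9 were higher and none lower relative to the markers, with a median of 0.87, also below that of all tested genes. After TMM 16 were lower, against 24.8% of all tested genes. All 29 respiratory chain genes were higher relative to the markers, like 92.1% of all tested genes, with a median of 2.06 that lay below the 2.68 of all tested genes, while 22 of them were lower and none higher after TMM, with a median of -0.62, the lowest being *Sdha*, a subunit of succinate dehydrogenase, at -1.54. Muscle, a tissue rich in these subunits, was present in the CV libraries at the sums given above, and its part in the result was not tested.

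Thermogenic genes split by gene. *Cidea* (-0.97 ± 0.449, SE, adjusted p = 0.0328), *Elovl3* and *Otop1* (-1.54 ± 0.510, adjusted p = 0.00290) were the 3 lower genes of 15, while 10 were higher and the median was 2.69. That median was close to the 2.68 of all tested genes, of which 92.1% were higher. Without the replicate block 5 genes of that list were lower. *Cidea*, a droplet protein of brown and beige fat, was at 6.14 to 10.8 TPM in CV and at 64.5 to 115 TPM in iWAT. Its call was lost without any 1 of mice 1, 2, 3 and 5, at -1.02 to -0.90, and that of *Otop1* without mouse 3 (-1.23). *Ucp1*, the uncoupling protein, was low in both, at 3.59 to 6.86 TPM in CV and at 7.35 to 24.5 TPM in iWAT, at 1.36 ± 0.488 relative to the markers (adjusted p = 0.00591), below the median of all genes, and lost the call without mouse 5 (1.18). *Cox7a1*, a respiratory subunit of muscle and brown fat, was at 399 to 905 TPM in CV against 66.1 to 152 TPM in iWAT. *Cpt1b*, the fatty acid carrier enzyme of muscle and brown fat, was at 27.2 to 43.2 TPM against 4.23 to 12.3 TPM, and *Fitm1*, a droplet-forming protein of muscle, at 79.9 to 171 TPM against 0.130 to 4.75 TPM. Muscle genes moved with these 3 genes, and their part in the result was not tested.

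Transcription factors of adipocytes and fat expansion genes were compared on both scales. *Pparg*, the master factor of adipocytes, averaged 54.7 TPM in CV and 203 TPM in iWAT without overlap, at 0.66 ± 0.436 relative to the markers (SE; adjusted p = 0.134). Of 16 factors, 12 were higher and none lower relative to the markers, where 92.1% of all tested genes were higher, with a median of 1.72 against 2.68 over all tested genes, while 10 were lower and 2 higher after TMM. *Igf2*, the imprinted fetal growth factor, was at 81.7, 80.7, 74.0, 113 and 126 TPM in CV and at 6.47, 5.44, 4.88, 6.12 and 4.09 TPM in iWAT, 17.6 times as high in CV (log2 fold change after TMM 3.96 ± 0.175, adjusted p = 2.33e-06). *Mest*, an imprinted gene that rises as fat cells enlarge, was at 31.4 to 65.8 TPM against 4.43 to 13.7 TPM (2.20 ± 0.180, adjusted p = 3.37e-05), and *Peg3* at 28.1 to 42.9 TPM against 5.65 to 10.1 TPM. LV held at most 12.6% of the CV mean of these 3 genes. *Bmp3*, a bone morphogenetic protein of the same list, was at 18.6 to 34.0 TPM against 3.30 to 9.70 TPM. *Nnat*, or neuronatin, went the other way after TMM, at 14.4 to 33.0 TPM in CV against 36.6 to 405 TPM in iWAT (-2.84 ± 0.583, adjusted p = 0.00340). *H19* and *Meg3* were listed at 0 in every library.

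Some genes of body position differed strongly between the tissues, though not the HOX genes as a whole, of which 12 of 34 tested were higher in CV after TMM and 11 lower. HOX genes lie in 4 clusters and are used from head to tail in the order in which they lie, and genes of groups 10 to 13 mark the hind end of the body. Of 9 tested genes of groups 10 to 13, 7 were higher in CV after TMM and 1, *Hoxd10*, was lower, with a median log2 fold change of 7.66, or 5.24 with the 3 genes at 0 in iWAT set at their bound. *Hoxc12* was at 23.0, 16.1, 22.0, 15.1 and 18.1 TPM in CV and had no count in any iWAT library, at least 52.0-fold higher. *Hoxc13*, at 7.93 to 10.9 TPM, and *Hoxa13*, at 3.08 to 8.43 TPM, were also at 0 in iWAT (at least 80.1-fold and 23.5-fold higher). LV held at most 0.010 TPM of these 3 genes on average. *Hoxa11* was at 6.96 to 10.7 TPM against at most 0.0800, and *Hoxc11* at 10.3 to 14.6 TPM against 0.120 to 0.760. The last genes of cluster D, *Hoxd11*, *Hoxd12* and *Hoxd13*, were too low to be tested, at 0.230 TPM or less in every CV library.

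The border lay at group 10, where iWAT still had signal. *Hoxa10* was at 16.7 to 22.5 TPM in CV and at 7.26 to 10.1 TPM in iWAT, and *Hoxc10* at 17.3 to 26.8 TPM and 15.3 to 21.6 TPM, with overlap (log2 fold change 0.20 ± 0.145, SE, adjusted p = 0.261). Among groups 6 to 9, *Hoxc8* was at 1.73, 1.97, 1.48, 1.5 and 1.55 TPM in CV and at 28.2, 28.3, 28.4, 30.7 and 28.2 TPM in iWAT, 17.5 times as high in iWAT (-4.27 ± 0.111, adjusted p = 3.80e-07). *Hoxc6* was at 2.61 to 3.19 TPM against 19.6 to 26.6 TPM (-2.97 ± 0.107, adjusted p = 9.96e-07). In groups 1 to 5, 6 of 13 tested genes were lower in CV and 2 higher, and in groups 6 to 9, 4 of 12 were lower and 3 higher.

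**Figure D5:**
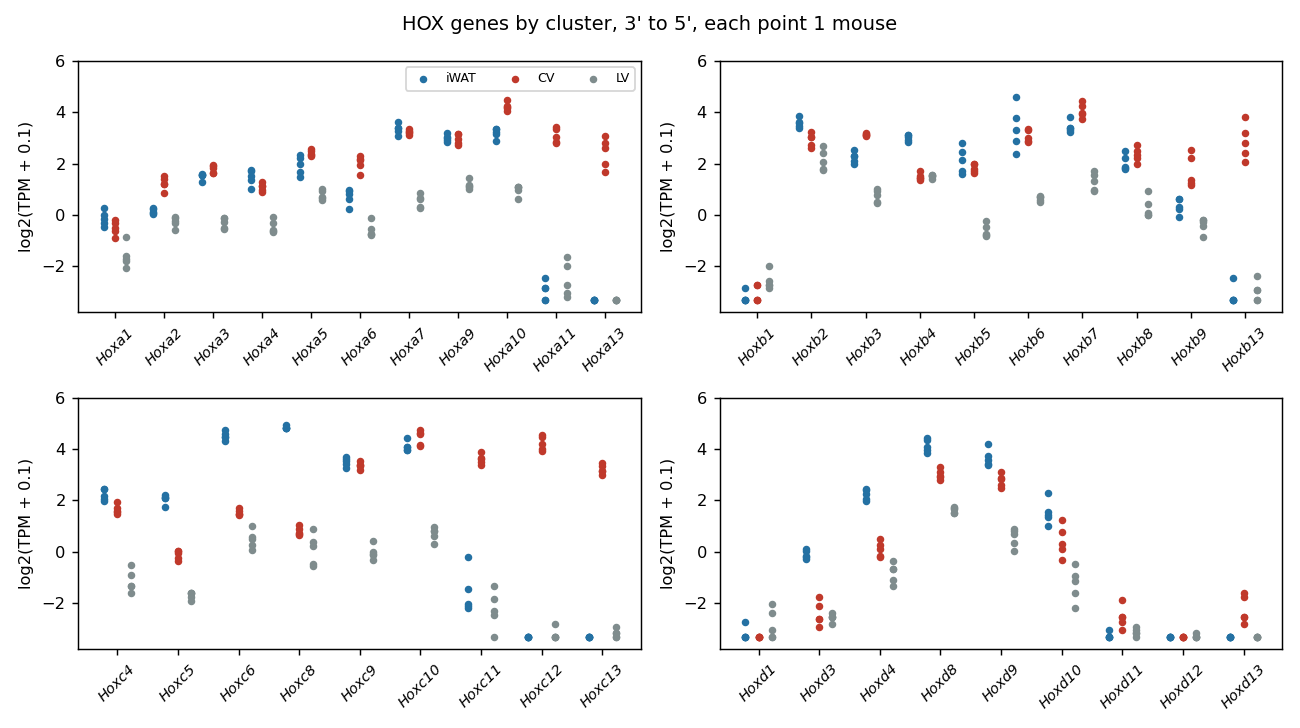
Log2(TPM + 0.1) of HOX genes in iWAT, CV and LV, in 1 panel per cluster with genes in their order along it and 1 point per mouse. Genes of groups 11 to 13 were high in CV and at or near 0 in iWAT and LV in clusters A and C, while *Hoxc6* and *Hoxc8* were high in iWAT.

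Other positional factors were higher in CV in 10 of 16 cases and lower in 2. *Zic1*, a patterning factor that also marks brown fat and was kept in the thermogenic list, was at 5.02 to 6.36 TPM in CV and at 0 to 0.0700 TPM in iWAT (log2 fold change after TMM 7.76 ± 0.369, SE, adjusted p = 3.12e-06), with LV at 0.386 TPM. *Tbx15* was at 69.5, 59.9, 53.5, 77.0 and 63.5 TPM in CV and at 10.6, 9.84, 11.1, 9.56 and 9.78 TPM in iWAT, with LV at 1.42 TPM (2.51 ± 0.0935, adjusted p = 1.15e-06). *Pax1*, *Pax9*, *Nkx3-2* and *Uncx*, which pattern the vertebral column, were all higher, with *Pax1* at 11.7 to 23.2 TPM against at most 0.210 and *Uncx* at 1.06 to 1.81 TPM against 0 (at least 10.7-fold). *Shox2* was lower in CV, at 2.00 to 3.36 TPM against 11.3 to 14.0 TPM (-2.21 ± 0.192, adjusted p = 4.54e-05).

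The animal numbers fell into 2 ranges, with mice 1 to 3 in the lower and mice 4 and 5 in the upper, and the labels do not say what the ranges mean. In CV, counts of 2 mice of 1 range differed by a chi-square per gene of 12.2 to 19.3 and counts of mice from different ranges by 42.0 to 62.0, so CV libraries were more alike within a range. Relative to the markers, on TPM, *Fasn* was at -2.71 and -2.13 in the means of the lower and the upper range, *Thrsp* at -3.60 and -2.84, *Slc25a1* at -3.08 and -1.98 and *Mogat1* at -3.8 and -3.55. *Pnpla2* was at -0.26 and 0.48, so its value near 0 came from ranges on both sides of it. *G0s2* was at 0.30 and 1.54.

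In the 5 leptin-treated females, the tissues differed in 23.9% of 15044 tested genes as higher in CV and 23.1% as lower after TMM. Relative to the markers, 95.3% were higher and 1.75% lower, with the median of all genes at 3.40 in place of 2.68, and the 3 markers had a median of -3.40 after TMM in place of -2.83. Of the 307 genes lower relative to the markers with PBS, 291 were tested in the leptin mice, 248 were below 0 there and 203 were called lower. Leptin mice called 4 of the 15 lipogenic genes lower and 6 higher, against 9 and 4 with PBS. The markers did not move together in the leptin mice, where 1 of the 3 was itself called higher and 1 lower on this scale. Of the 8 broad markers 5 were higher and 1 lower there, with a median of 1.02, while with PBS none was called and the median was 0.08. In iWAT the median of *Cidec* was 1774 TPM with leptin and 922 TPM with PBS, and that of *Plin1* 535 and 966 TPM. The part of this shift in the leptin counts was not tested. *Adrb3* was at -3.46 ± 0.411 (SE) and lower in that set too, *Elovl6* at -1.45 ± 0.414 and *Mogat1* at -2.21 ± 0.526, all called lower. *Pnpla3* (-0.13), *Ptger3* (-0.50) and *Slc25a1* (-0.45) were not called. The leptin mice are other animals than the PBS mice, and the difference between the treatments was not tested.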

How the data were processed

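RNA was sequenced from 5 CV and 5 iWAT samples of the same female WT mice with ICV PBS. By the study's methods, poly(A) RNA was sequenced in paired ends on the DNBSEQ platform, reads were filtered with SOAPnuke and aligned with HISAT and Bowtie2 to GRCm38.p6 (the submitters' processing notes name GRCm39 as well), and the counting tool and strand setting were not given in the sources used here. The deposited gene table holds estimated counts, which the authors made from those alignments without normalization. Only 51 of its values, in 6 genes, were not whole, and these were rounded. The deposited TPM table was made by the authors from the same alignments and corrects for transcript length and library total.

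Genes whose TPM averaged 0.4 or more across the 10 libraries were tested with edgeR 4.0.16 in R 4.3.3 (quasi-likelihood test, TMM factors, mouse as a block, Benjamini-Hochberg adjustment), first after TMM and then with libraries scaled by the geometric mean of *Adipoq*, *Plin1* and *Cidec*. Calls needed an adjusted p under 0.05 and a log2 change of at least 0.5. The test was also run on simulated data with known changes, in which each gene varied independently between libraries. Those data held no spread of the markers common to all genes, so they could not test the p-values relative to the markers. Single values used exact sign-flip tests over mice with scipy 1.17.1, and figures were drawn with matplotlib 3.10.9. Counting error alone sets the floor of 3 counts per library. The pairing rests on the labels, which give both tissues the same animal number. Deviations of same-mouse libraries correlated at -0.04, 0.00, 0.05, 0.10 and 0.26. The highest correlation with another mouse was 0.10, 0.25, 0.18, 0.17 and 0.05, above the same-mouse value in all but mouse 5.

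Alternatives were DESeq2 1.42.0, limma 3.58.1 on log2 TPM with a pseudocount of 0.1 or 1, other size factors, other filters, a log2 change of 1, other markers, no block, leaving out each mouse and, chosen after seeing the data, subtraction of LV unscaled or scaled by osteoblast genes and a demand for the same direction in all 5 mice.

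The comparison and the gene lists were chosen with earlier results of these data known. Genes were named by rule: the markers, lipases and lipolysis receptors of at least 5 TPM, up to 4 called genes of each other list, the 10 largest folds in each tissue and the 10 lowest genes relative to the markers of at least 20 TPM, and genes the study names. Some genes that the rule names are not reported here. Further genes, such as *Scd1*, *Dgat1*, *Elovl3*, *Lep*, *Retn*, *Lcn2*, *Ltf*, *Acta1* and *Krt18*, were chosen after their values were seen. Coordinates and promoter sequences came from RefSeq for GRCm38.p6, matched by gene ID for 518 of 518 genes.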

Additional observations from a re-analysis of the deposited data

Results flagged for a closer look

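In 27 of 308 groups of 5 libraries, 1 value lay far from the other 4 by Dixon's criterion, where chance gives about 1 group in 20. In CV, 9 of the 27 fell on mouse 2. Its *G0s2* was at 180 TPM against 95.0 to 117 TPM in the other CV libraries, its *Insr* at 15.5, its *Acss2* at 20.8, its *Agpat2* at 139 and its *Angptl8* at 9.30 TPM. *Plin2*, a droplet coat protein, was at 118 TPM in that library, *Lepr* at 72.4 TPM and *Fcgbp* at 0.540 TPM, while *Bmp4* was lowest there, at 23.0 TPM against 28.9 to 29.7 TPM. Without mouse 2, 25 adipocyte-list genes were lower in CV relative to the markers and 107 higher.

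In the other CV libraries, *Mb*, the oxygen store of muscle, was lowest in mouse 5 at 4827 TPM, *Scd2* was lowest and *Ctsk* highest in mouse 3 at 79.3 and 1286 TPM, and *Nkx3-2* was highest in mouse 4 at 6.50 TPM. In iWAT, mouse 4 had the highest *Mb* at 45.9 TPM and *Myh2* at 3.52 TPM, along with *Cxcl12* at 166.4, *Shox2* at 14.0 and *Hoxc8* at 30.7 TPM. Mouse 2 had the highest *Mmd* at 906, *Mogat2* at 20.2 and *Hoxc10* at 21.6 TPM in iWAT. Mouse 3 had the lowest *Sncg* at 967 TPM, and the highest *Vsig4* at 3.72 and *Hoxc11* at 0.760 TPM. Mouse 1 had the highest *Ucp1* at 24.5, *Elovl5* at 68.4 and *Esm1* at 2.86 TPM.

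For 3 of 87 genes, every PBS mouse moved one way relative to the markers and every leptin mouse the other, and the difference was not tested. Of the 3 markers that set this scale, 1 was itself called higher and 1 lower in the leptin mice. The mean log2 difference on TPM was -0.64 with PBS and 2.47 with leptin for *Sncg*, a synuclein of adipocytes, -1.71 and 1.40 for *Fabp5*, and -1.36 and 0.64 for *Otop1*, a proton channel.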

How the results depend on the processing

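Of 1979 log2 fold changes of named genes under the alternatives other than subtraction of LV, 1899 kept their side of the threshold, 36 lost a call and 44 gained one. None changed sign where the main or the alternative fit called the gene. A change of sign between uncalled values near 0, as for *Pnpla2* over the choice of markers, was counted among the 1899. A log2 change of at least 1 left 2226 genes higher and 2038 lower in CV. Scaling by *Plin1* alone raised the adipocyte-list genes called lower to 42. DESeq2 gave 3797 higher and 3680 lower genes, and limma 4223 and 2826 with a pseudocount of 1 TPM. Without the replicate block the counts were 3874 and 3762 after TMM and 13949 and 359 relative to the markers, where *Pparg*, *Plin4*, *Mgll*, *Sncg*, *Mmd*, *Sucnr1*, *Hcar1* and *Cd36* gained a call. Unpaired, the marker differences of -2.69 for *Adipoq*, -2.10 for *Plin1* and -2.80 for *Cidec* each had an exact permutation p of 0.00794, while 5 pairs cannot go below 0.0625.

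Leaving out each mouse gave 3686 to 3848 higher and 3570 to 3709 lower genes after TMM, and 13424 to 13861 and 248 to 358 relative to the markers. Adipocyte-list genes ranged from 90 to 107 higher and from 25 to 32 lower, and lipogenic genes lower stayed at 9. The marker differences ran from -2.96 to -2.42 for *Adipoq*, -2.29 to -1.87 for *Plin1* and -3.02 to -2.50 for *Cidec*, and that of the *G0s2* to *Pnpla2* ratio from 0.57 to 0.87.

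Subtracting LV of the same mouse from CV moved values of 87 genes on TPM, as values with no test. Scaled by osteoblast genes, 38 moved by less than the spread between mice, 38 by more, and 11 called genes changed sign. Unscaled, these numbers were 64, 21 and 2, and scaled by bone and marrow lists 86, 1 and 0. LV was multiplied by 0.0388 to 0.0802 with the bone and marrow lists and by 2.72 to 4.56 with the osteoblast genes. The former took so little from CV that it could hardly move a value. The 11 were *Abhd5* (-7.15), *Hilpda* (-4.76), *Lipa* (-6.27), *Plaat3* (-4.97), *Insr* (-4.05), *Irs2* (-1.04), *Fads1* (-1.37), *Fads2* (-6.04), *Elovl5* (-6.68), *Acsl4* (-3.92) and *Ucp1* (-1.52). Unscaled, the 2 were *Abhd5* (-0.92) and *Plaat3* (-0.01). Which scaling is right was not tested.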
